A study of Anguilla anguilla with 12 samples.

Results

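The entries described here are the predicted miRNA precursors of European eel liver that carry the seed of a miRNA known from blood vessel walls and connective tissue. They were chosen by name: the zebrafish miRNA given in the deposited list as an example with the same seed had to be miR-126, miR-143, miR-145, miR-199 or miR-214. The rule found 8 of 820 precursor entries, with 6 distinct mature sequences, on 8 scaffolds. Of these, 2 entries were named miR-126b-3p, 3 were named miR-143 and 3 were named miR-199-3-3p. No entry carried the name miR-145 or miR-214. A seed is bases 2 to 8 of the mature miRNA, counted from its 5′ end, and a name given by seed can cover unrelated hairpins.

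The livers came from 12 yellow eels (Anguilla anguilla), 6 from Arcachon Bay, which the study calls pristine, and 6 from the Gironde Estuary, which it calls polluted. No treatment, age or sex is given in the labels. The list has no column per eel, so every read count below is a single value taken as pooled over libraries. The sources do not say if all 12 livers are in the pool, so a count may not stand for all eels or for both sites. Therefore no spread between eels can be stated, and the sites are not compared. Depth per library is unknown. The pooled list held 272589277 mature reads when each distinct mature sequence was counted once, and intervals given beside shares are exact binomial (Clopper-Pearson) 95% intervals that cover counting error only.

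A miRNA is cut from a hairpin precursor as a duplex of both arms, 5p and 3p, and usually one arm is kept by an Argonaute protein and pairs through its seed with messenger RNAs. The arm the list calls mature is its main product, and the other is called star. In zebrafish and mammals miR-126 is made in endothelial cells from an intron of egfl7 and supports vascular integrity. There, miR-143 and miR-145 come from a shared transcript and are typical of smooth muscle, and miR-199 and miR-214 come from a shared transcript of mesenchymal cells. Sinusoids, vessel walls and connective tissue are part of any liver sample, and miR-199 has also been described among abundant miRNAs of whole human liver. In bulk tissue, fewer cells of a type and less RNA per cell cannot be told apart.

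The mature sequences fell into 3 seed groups, and they are printed because the seed is what gave each entry its name. Capitals mark the seed, and the sequences run 5′ to 3′ as listed.
miR-126b-3p, scaffold 197: uCGUACCGugaguaauaaugca
miR-126b-3p, scaffold 5788: uCGUACCGugaguaauaaug
miR-143, scaffold 90543: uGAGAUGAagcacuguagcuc
miR-143, scaffold 49837: cGAGAUGAagcacuguagga
miR-143, scaffold 292: uGAGAUGAagcacuggggca
miR-199-3-3p, scaffolds 44000, 307214 and 2795: aCAGUAGUcugcacauugguu
The miR-126 sequences are the same over 20 nt and differ only in length. The miR-143 sequences share the seed and diverge towards the 3′ end, and that on scaffold 49837 also differs in its first base. In the list, the seed CGUACCG was found in 2 of the 1640 listed arms (0.122%), and the seeds GAGAUGA and CAGUAGU in 3 each (0.183%). All of these arms are the mature arms of the entries above.

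The opposite arms are printed because their reads differ most among the families. Capitals again mark bases 2 to 8.
miR-126b-3p, star arm, scaffolds 197 and 5788: cAUUAUUAcuuuugguacgcgc
miR-143, star arm, scaffold 90543: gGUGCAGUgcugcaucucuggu
miR-199-3-3p, star arm, all 3 scaffolds: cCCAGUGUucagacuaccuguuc
Each star arm has another seed than its mature arm. In all 3 cases it is the 5p arm.

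Together the entries held 4722888 mature reads, or 1.733% of the pool (interval 1.731% to 1.734%). miR-143 made up 50.2% of these reads, miR-126 44% and miR-199 5.77%. The families thus stood in the order miR-143 with 0.869%, miR-126 with 0.763% and miR-199 with 0.0999% of all mature reads. These shares depend on what is counted. The miR-126 value adds the 22 nt and 20 nt sequences, so reads that match both may be counted at each. With the shorter one left out, miR-126 held 0.524% and the named entries together 1.5%. With every entry counted, miR-199 held 0.21%, and by total reads, which add its star arm, 0.162%. With miR-122 left out of the denominator they were 2.47%, 2.17% and 0.284%, in the same order. By mature reads summed per seed, miR-143 ranked 10, miR-126 11 and miR-199 23 of 552 seeds. This rank of miR-126 and its 44% also add both lengths, so the same limit holds for them. The order of miR-143 and miR-126 is not secured against the spread between eels, which is unknown. miR-122, the hepatocyte miRNA, held 176573973 reads in its most abundant sequence. That is 74.5 times the reads of the most abundant miR-143 sequence, 124 times those of miR-126 and 648 times those of miR-199. A minimum prediction score of 10, described below as an alternative, would remove miR-122.

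**Figure D1:**
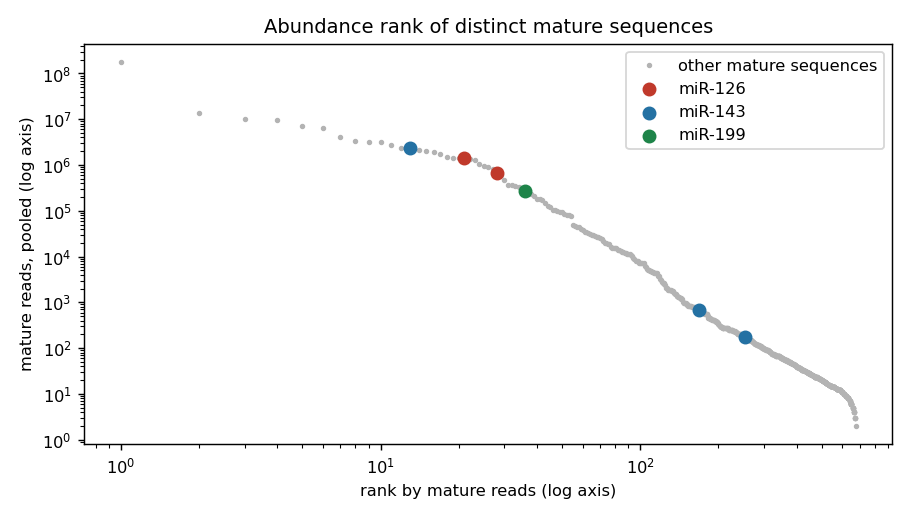
Mature reads (y axis, log) of the 676 distinct mature sequences against their rank (x axis, log), pooled over libraries; each point is 1 sequence and the coloured points carry the names miR-126, miR-143 and miR-199. The top miR-143 sequence stands at rank 13, the miR-126 pair at 21 and 28 and miR-199 at 36, whereas the other miR-143 sequences lie at 169 and 253.

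miR-126 was listed at 2 hairpins. The first lay on scaffold 197 (95282 to 95340, minus strand) with 1426038 mature, 12806 star and 1 loop reads. The second lay on scaffold 5788 (2612 to 2667, plus strand) with 654350 mature, 12750 star and 0 loop reads. Their star arms are identical in sequence and differed by 56 reads, while the mature counts differed by 771688 reads, or 54.1% of the larger count. The listed mature sequence is 22 nt long on scaffold 197 and 20 nt on scaffold 5788, where the listed precursor ends with it.

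The miR-126 precursors are shown to mark where the copies differ. Capitals mark both arms, and lower case the stretch between them.
scaffold 197: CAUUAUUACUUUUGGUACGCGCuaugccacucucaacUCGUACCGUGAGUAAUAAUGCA
scaffold 5788: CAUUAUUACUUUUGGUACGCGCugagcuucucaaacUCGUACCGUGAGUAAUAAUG
The stretch between the arms is 15 nt in the first and 14 nt in the second. Reads that match both hairpins cannot be separated, so the counts are not those of separate genes. With the shorter variant left out, the miR-126 share was 0.524% in place of 0.763%.

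The 3p arm of miR-126, known for its part in endothelial signalling, held nearly all reads at both hairpins. The star share, star reads over mature plus star reads, was 0.89% on scaffold 197 (interval 0.875% to 0.906%) and 1.91% on scaffold 5788 (interval 1.88% to 1.94%). The mature arm thus had 111 and 51.3 times the star reads. Since the star counts are close to equal, the distance between these shares comes from the mature counts. The 5p arm, which in mammals is also active in endothelial cells, would stand at rank 85 among the mature sequences with its 12806 reads.

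miR-143 had 1 abundant hairpin and 2 poor ones. On scaffold 90543 (167 to 221, plus strand) the hairpin had 2369224 mature, 5052 star and 0 loop reads. Its star share of 0.213% (interval 0.207% to 0.219%) was the lowest among the 6 member precursors with star reads, with 469 mature reads for each star read. The entry on scaffold 49837 (624 to 673, plus strand) held 671 mature reads, and that on scaffold 292 (138031 to 138117, plus strand) held 177. Neither had a star or loop read. Together these low entries held 0.0358% of the mature reads named miR-143.

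The low entries named miR-143 share the seed but not the hairpin. Counted from the 5′ end, the mature sequence on scaffold 49837 differed from the abundant one by U1C, C19G and U20A, and shared an unbroken run of 17 nt with it. The one on scaffold 292 differed by U16G, A17G and U20A and shared a run of 15 nt. In both, the reads came from the 5p arm of the listed hairpin, whereas the abundant miR-143 sequence is a 3p arm. The longest run shared with the abundant hairpin's star arm was 7 nt in the precursor on scaffold 49837 and 6 nt in that on scaffold 292. Their 0 star reads allow a star share of up to 0.548% on scaffold 49837 and 2.06% on scaffold 292 (upper interval bounds). In these 2 entries the match to the abundant miR-143 hairpin thus lies in the mature sequence alone.

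The miR-143 precursors differ in shape as well, and the abundant one is printed with the shorter of the low ones. Capitals mark both listed arms.
scaffold 90543: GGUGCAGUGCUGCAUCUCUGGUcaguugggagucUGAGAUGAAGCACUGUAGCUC
scaffold 49837: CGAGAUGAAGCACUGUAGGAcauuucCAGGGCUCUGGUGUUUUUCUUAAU
The listed precursors measure 55 nt on scaffold 90543, 50 nt on scaffold 49837 and 87 nt on scaffold 292, with 12, 6 and 49 nt between the arms. The predicted folding energy, computed with RNAfold at 37 °C, was -26.1, -10.9 and -31.7 kcal/mol in the same order. Per nucleotide it was -0.475 for the abundant hairpin, -0.218 on scaffold 49837 and -0.364 on scaffold 292, against a median of -0.398 over all 820 entries. Ranked from the most stable, they stood at 186, 805 and 539.

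**Figure D2:**
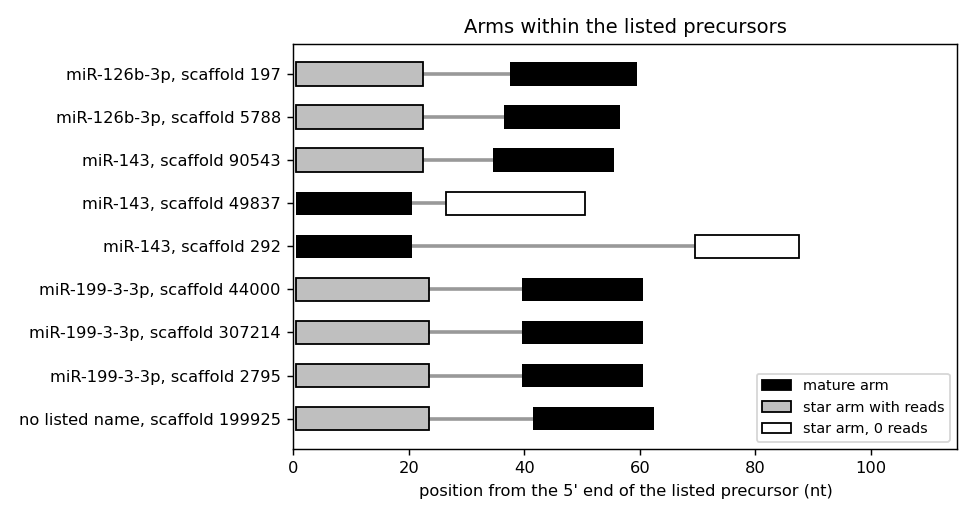
Position of the mature arm (black) and the star arm (grey with reads, white with 0 reads) along each listed precursor, in nt from its 5′ end; each line is 1 precursor. The mature arm lies at the 3′ end in 6 of the 8 named entries and at the 5′ end in the miR-143 entries on scaffolds 49837 and 292.

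miR-199 was listed at 3 hairpins whose arms are identical, and it was the family whose reads were split most evenly between the arms. On scaffold 44000 (856 to 915, minus strand) there were 272428 mature, 171541 star and 0 loop reads. The one on scaffold 307214 (226 to 285, minus strand) held 271966 mature, 171549 star and 4 loop reads. The one on scaffold 2795 (16427 to 16486, plus strand) held 271966 mature, 171541 star and 0 loop reads. The 3 counts of an arm lie within 462 mature and 8 star reads of each other, so nearly all appear to be the same reads listed at each copy.

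The miR-199 precursors are printed because only the stretch between the arms tells them apart. Capitals mark both arms.
scaffold 44000: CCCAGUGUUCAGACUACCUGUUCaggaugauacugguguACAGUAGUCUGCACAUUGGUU
scaffold 307214: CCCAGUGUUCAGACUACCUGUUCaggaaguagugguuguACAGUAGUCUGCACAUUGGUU
scaffold 2795: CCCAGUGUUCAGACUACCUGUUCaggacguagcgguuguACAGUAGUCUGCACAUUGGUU
All are 60 nt long with 16 nt between the arms. The copies on scaffolds 307214 and 2795 differed at 2 positions. The copy on scaffold 44000 differed at 7 positions from the former and at 6 from the latter. Every difference within the listed 60 nt lay between the arms, so reads that lie wholly within an arm cannot be assigned to a copy. Sequence outside the listed precursors was not compared.

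The star share of miR-199 was 38.6% on scaffold 44000 (interval 38.5% to 38.8%) and 38.7% at both other copies. The 3p arm had 1.59 times the reads of the 5p arm. Among the 234 precursors with 1000 or more reads on the arms together, where the median star share was 0.188%, the miR-199 copies ranked 11 to 13 from the highest. The miR-126 precursors ranked 65 on scaffold 5788 and 82 on scaffold 197, and miR-143 ranked 116. The 5p arm of miR-199 was the third most abundant star sequence in the list and held 11.5% of all star reads when each star sequence was counted once. With 171541 reads it would take rank 42 among the 676 mature sequences, although no entry is named for it. Its seed, CCAGUGU, was found in 4 of 1640 listed arms (0.244%), of which the 3 miR-199 star arms had reads.

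**Figure D3:**
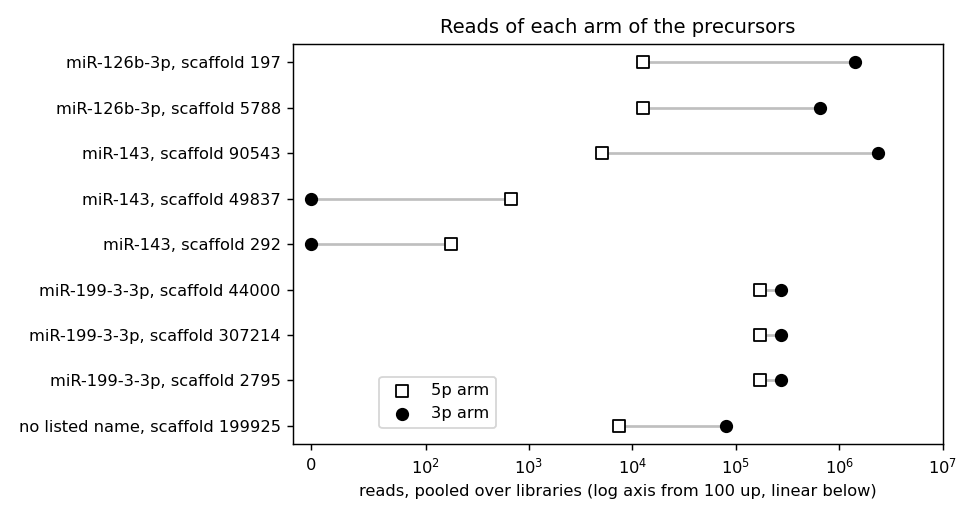
Reads of the 5p arm (open squares) and the 3p arm (black circles) of each precursor, pooled over libraries, on an axis that is logarithmic from 100 reads up and linear below. The arms of miR-199 lie close together at 171541 to 272428 reads, those of miR-126 and of the abundant miR-143 hairpin lie far apart, and the low miR-143 entries have 0 reads on the 3p arm.

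**Figure D4:**
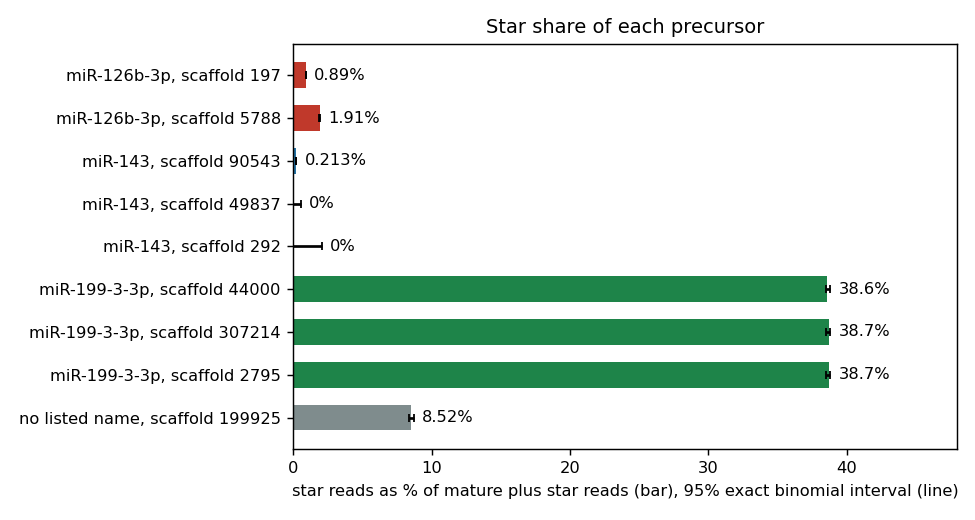
Star reads as a percentage of mature plus star reads for each precursor (bars), with exact binomial 95% intervals (lines), coloured by family. The 3 miR-199 copies reach 38.6% to 38.7%, while the miR-126 and miR-143 precursors stay between 0% and 1.91%.

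No entry was named miR-145, the usual partner of miR-143, but its seed occurs in the list. The letters UCCAGUU, which are bases 2 to 8 of miR-145-5p in vertebrates, were searched at that position in all listed arms after the list had been seen. They were found in 1 of 1640 arms (0.061%). That arm is the star arm of a hairpin without a listed name on scaffold 199925 (71 to 132, plus strand), which held 80310 mature, 7477 star and 4 loop reads. Its arms are printed with bases 2 to 8 in capitals.
scaffold 199925, star arm (5p): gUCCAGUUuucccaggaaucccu
scaffold 199925, mature arm (3p): aUUCCUGGaaauacuguucuu
The list gives names for the seed of the mature arm, which is here the 3p arm. A match of the seed is a description. The rest of these arms was not compared with a miR-145 sequence, so the identity of the hairpin was not tested. It is not counted among the 8 entries because the list does not name it.

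In the hairpin on scaffold 199925 the 3p arm had 10.7 times the reads of the 5p arm, with a star share of 8.52% (interval 8.33% to 8.7%). Its 5p arm had 0.316 reads and its 3p arm 3.39 reads for every 100 mature reads of the abundant miR-143 hairpin. The 3p arm ranked 52 among mature sequences. The precursor folded at -0.429 kcal/mol per nt. A prediction on the opposite strand of the same scaffold (70 to 129) held 11 mature and 1 star reads.

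miR-214, which shares a transcript with miR-199 in zebrafish and mammals, was neither named nor matched. Its seed CAGCAGG was found at bases 2 to 8 in 0 of 1640 listed arms, which says only that these letters are not there. A family can be missing from a list of predictions for other reasons than a lack of reads, so neither miR-145 nor miR-214 is shown to be absent. The cases differ, since the miR-145 seed was found in 1 listed arm, and that arm had reads.

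None of the 8 entries lay in a genomic cluster, meaning another entry with its start within 10 kb on the same scaffold and strand. This was also true within 3 kb, within 50 kb and on either strand. The only other entry on these scaffolds was on scaffold 197, at 130956 nt from miR-126. The other distances and the choice of strand could therefore not give another result. The scaffold lengths are not used here, so a partner on another scaffold of the same chromosome would not be seen. No other entry shared 15 or more consecutive bases of an arm with an arm of the 8 entries.

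The miRDeep2 score, a log-odds score for a hairpin cut like a miRNA, did not rise with the reads in every entry. It was 1210468.7 for the abundant miR-143 hairpin, 733562 for miR-126 on scaffold 197, and 226114.1 to 226349.2 for the miR-199 copies. In these 5 entries it was 0.51 per read. The miR-126 hairpin on scaffold 5788 scored only 3.4 despite 667100 total reads. The low miR-143 entries scored 1.8 and 2.5. A minimum score of 10 would therefore keep 5 of the 8 entries and drop a miR-126 hairpin whose star arm has 12750 reads. That star arm is identical to the one on scaffold 197, so these reads cannot be assigned to the dropped hairpin alone.

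In sequence make-up, the 6 distinct mature sequences are 20 to 22 nt long and 4 of them begin with U, a base preferred by Argonaute. The GC content ran from 40% in the short miR-126 sequence to 55% in miR-143 on scaffold 292. RNAfold paired 75% to 90% of the mature bases in the 8 precursors, against a median of 81% over all entries. The highest value belonged to miR-126 on scaffold 5788 and the lowest to miR-143 on scaffold 49837.

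Other families tied to vessels, smooth muscle or fibrosis give the scale. Of 27 such families, 22 had an entry and 5 (miR-17, miR-92, miR-490, miR-133 and miR-152) had none of that name, although names go by seed and a family can be listed under another. The most abundant single sequences belonged to miR-21, linked to fibrosis and injury, with 13911397 reads and to miR-22 with 9529100. They were followed by miR-146, a regulator of inflammation, with 3341038, miR-100 with 3226945, miR-181 with 944848 and miR-10 with 918850. The top miR-143 and miR-126 sequences stood below 4 of the 27 families, and the miR-199 sequence below 6. Many of these families are widely expressed, so their reads do not point to a cell type.

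**Figure D5:**
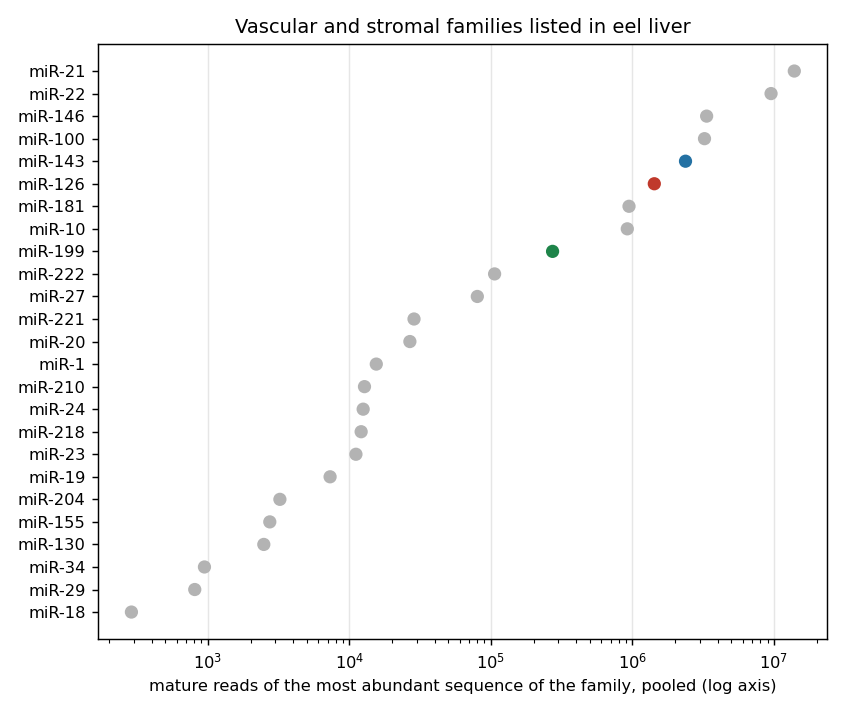
Mature reads of the most abundant sequence (x axis, log) of each listed vascular or stromal family, pooled over libraries; grey points are comparison families and coloured points are miR-126, miR-143 and miR-199. miR-143 with 2369224 reads and miR-126 with 1426038 reads lie between miR-100 and miR-181, and miR-199 with 272428 reads lies between miR-10 and miR-222.

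Among marker lists of the cell types a liver sample can hold, the endothelial list rests on miR-126 alone. Mesenchymal or smooth muscle markers added up to 2642500 mature reads from 2 of 4 families, with miR-145 and miR-214 unnamed. The unnamed hairpin with the miR-145 seed is not in this sum. The erythroid list held 424400 reads, with no entry named miR-144, and the epithelial or biliary list held 220649, with none named miR-141. The striated muscle list held 16569 reads, with no entry named miR-133 or miR-206. The leukocyte list of miR-142, miR-150, miR-155 and miR-223 held 7389, with none named miR-142 or miR-223. It leaves out miR-146, which is given above among the vessel and fibrosis families, so its value depends on the families chosen. The part of blood, epithelial or muscle RNA in these values was not tested. The families on the hepatocyte list, miR-122, miR-192 and miR-194, all had entries and held 66.5% of mature reads. Of their 181204074 reads, 176573973 belonged to the most abundant miR-122 sequence, so the share says little about miR-192 and miR-194.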

How the data were processed

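Small RNA libraries of 12 eel livers were made with a small RNA kit, per the labels' protocols, and demultiplexed with bcl2fastq 2.17.1.14, per the submitters' processing notes. The authors deposited miRDeep2 predictions, per the file headers: for each precursor the raw read counts of the mature, star and loop part, their total, and the program's score. The total equalled the sum of the parts in 820 of 820 entries. The sources used here do not give the aligner, trimming, miRDeep2 version or genome build. Depth per sample is unknown, and amplification copies are counted as reads. How evenly the libraries captured different sequences was not tested, so ratios between arms or families are ratios of reads.

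Identical mature sequences were counted once, at their highest count. Starts were raised by 1 to count from 1. All 8 entries found by the rule are named, together with entries sharing 15 bases or lying within 50 kb (none). The hairpin on scaffold 199925 was singled out after its values were seen. Members and lists were chosen with earlier results of these data known. The planned test between sites needs counts per eel, so it was not made. Python 3.11.15, pandas 2.3.3, scipy 1.17.1 and RNAfold 2.7.2 were used. The functions were tested on simulated data. Alternatives were a minimum score, other ways to count copies and reads, and other cluster distances. No reference genome was used.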

Additional observations from a re-analysis of the deposited data

Results flagged for a closer look

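Loop reads entered no comparison. Taking 3 reads as the limit that a count of 0 allows, the miR-199-3-3p hairpin on scaffold 307214 had 4 loop reads, as did the unnamed hairpin on scaffold 199925. The other miR-199 copies, whose stretch between the arms differs, had 0.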

How the results depend on the processing

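The shares of mature reads of the named families moved beyond counting error with every planned way of counting, while miR-145 and miR-214, with no entry of their name, stayed at 0. The shares of miR-126, miR-143, miR-199 and all members are given in that order. With every entry counted they were 0.536%, 0.61%, 0.21% and 1.36%. With 1 sequence per seed they were 0.583%, 0.969%, 0.111% and 1.66%. By total reads they were 0.769%, 0.867%, 0.162% and 1.8%. With miR-122 left out of the denominator they were 2.17%, 2.47%, 0.284% and 4.92%. With only entries scoring 10 or more, which also removes miR-122, they were 1.54%, 2.56%, 0.294% and 4.39%. miR-143 stayed above miR-126 and miR-126 above miR-199 in each of these. Leaving miR-122 out of the denominator could not alter this order, because all families are divided by the same total. Counting every entry could not alter that of miR-143 and miR-126, since none of their mature sequences is listed at more than 1 entry. The minimum score and 1 sequence per seed drop the shorter miR-126 variant but only the low miR-143 entries. They could not reverse it either, so the order kept in these alternatives is no added evidence. Without the shorter miR-126 variant, an alternative chosen after seeing the data, miR-126 held 0.524% and all members 1.5%. With the 5p reads of the unnamed hairpin, also chosen afterwards, miR-145 would hold 0.00274%. These are star reads, whereas the main shares of the other families are of mature reads. The mature 3p arm of that hairpin held 0.0295% of mature reads. The minimum score of 10 left 5 of the 8 entries. The miR-126 star share was 1.21% with reads summed over both lengths. This sum adds the star counts of both hairpins, although their star arms are identical, so the same star reads may be counted at each. No paired analysis was possible because the list holds no counts per eel; for the same reason no eel could be left out.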
